A study of Mus musculus with 4 samples.

Results

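The genes described here encode the sensors that detect double-stranded RNA, the transcription factors that relay interferon signals, and the antiviral proteins that interferon induces. They were chosen by name, as a list of 34 genes, and where a gene had several probe sets the one that was brightest on average (log2 signal, 4 arrays) stood for it. Of the 34, 32 were measured among the 18194 named genes. The probe set of Isg15 also matches another gene, and Ifi44 was not named by a probe set with 1 gene, so neither has a value here. Of the 32 measured genes, 20 reached a mean signal of 50.9, the median of all probe sets, which 10788 of the 18194 genes reached. The other 12 fell short of it. The member nearest below that limit was Dhx58, with a mean signal of 45.8, and the nearest above it was Psmb9, with 55.5.

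The cells were 3T3-L1, an established mouse embryonic fibroblast line whose cells turn into adipocytes under insulin, isobutylmethylxanthine and dexamethasone. Of 4 cultures, 1 received the control siRNA siGL3, 1 an siRNA against aof2 (now Kdm1a, the histone demethylase LSD1) and 1 an siRNA against rfk (riboflavin kinase), each 24 h before induction. In the last culture tranylcypromine, a drug that blocks monoamine oxidases and LSD1, was added to the induction medium, and the labels name no siRNA for it. All 4 were induced in medium with 25 mM glucose and 10% serum and harvested 24 h later, and each was hybridised to 1 array. A culture with neither siRNA nor drug was not analysed here, so that effects of the drug and of any difference in transfection cannot be told apart. There are no replicates, so every value below is a single measurement, no test between conditions is possible, and the number of arrays limits the precision. The 3 siRNA arrays are different conditions, and their mean serves only as a common reference.

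Cells detect double-stranded RNA in the cytosol through the helicases RIG-I and MDA5, in endosomes through TLR3, and through the kinase PKR, which stops translation. The sensors activate IRF transcription factors that turn on type I interferon genes. Secreted interferon then binds receptors that activate a complex containing Stat2 and Irf9, and this complex binds the interferon-stimulated response element in the promoters of antiviral genes. Transfected short RNA duplexes can be recognised by some of these sensors, which is why the siRNA cultures were set against the tranylcypromine culture.

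The labels of the siRNAs were borne out by their targets. Kdm1a stood at 19.5% of control with aof2 siRNA and Rfk at 27% with rfk siRNA, while in the other treated arrays Kdm1a was at 87.4% to 99.3% and Rfk at 95.1% to 110% of control. Further probe sets gave 17.3% for Kdm1a with aof2 siRNA and 30.6% and 39.7% for Rfk with rfk siRNA, while with tranylcypromine Kdm1a was at 80.8% and Rfk at 127% and 128%. Deposited signals had the same trimmed mean on all arrays, 500.003, with medians of 53.3 to 56.2. Fibroblast and preadipocyte markers were bright: 7 of 7 measured, among them Pdgfra and Col1a2, passed the limit on mean signal, as did 6 of 7 genes of early adipogenic induction. Of the markers of other cell types, 2 of 10 macrophage, 1 of 5 dendritic cell, 0 of 4 lymphocyte, 0 of 5 endothelial and 1 of 4 epithelial genes passed it.

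Interferon response genes lay at similar levels in the siRNA arrays and in the tranylcypromine array. A gene was called when tranylcypromine differed by at least 1.5-fold from the mean of the 3 siRNA arrays and also lay outside their range. Of the 20 genes above the signal limit, 1 was called lower with tranylcypromine, the guanylate-binding protein gene Gbp2, and 1 higher, the tetherin gene Bst2. Among all 10788 genes 3.35% were called lower and 4.12% higher, so 1 of 20 (5%) in each direction is close to the background. Without the control siRNA array in the mean, Ifit1 and Tap1 were also called lower and Isg20 also higher. That made 3 of 20 lower and 2 higher, against 3.76% and 3.88% of all genes, so nearness to the background depended on the reference. Isg20 was also called higher without the aof2 siRNA array, which made 2 of 20 higher, against 6.47% of all genes. Neither Gbp2 nor Bst2 was among the genes compared when the limit was set at the 75th percentile of the probe sets. The median log2 difference of the 3-siRNA mean minus tranylcypromine was 0.11 over the 20 genes and 0.0011 over all 10788. In 13 of the 20 the siRNA mean was the higher value, against 50.2% of all genes. Tranylcypromine was the lowest array in 6 of 20 (background 28.1%) and the highest in 3 of 20 (27.7%), and it lay within the range of the siRNA arrays in the other 11. The median distance between the highest and the lowest siRNA array was 0.43 on the log2 scale. The median size of the difference from tranylcypromine was 0.20. Over all genes above the limit these 2 medians were 0.30 and 0.17. A range over 3 arrays and a difference from their mean are unlike measures, so which is larger says nothing about the members.

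**Figure D1:**
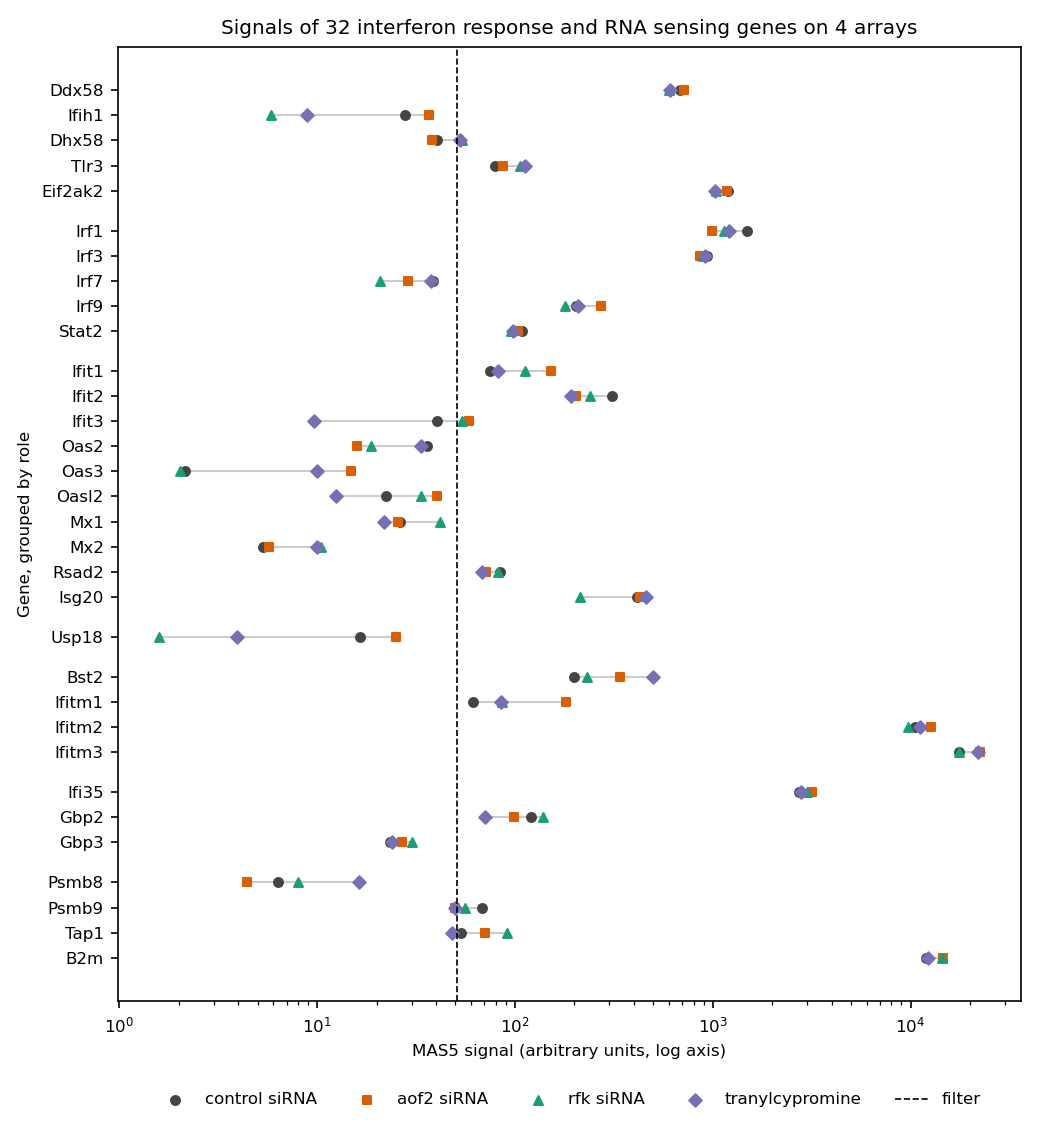
MAS5 signals (log axis) of the 32 measured genes on the 4 arrays, grouped by role, with a symbol per array and a dashed line at the signal limit of 50.9. Bst2 is highest and Gbp2 lowest in the tranylcypromine array, 12 genes have mean signals below the line, and signals of different genes are not comparable because probes differ.

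The promoters of these genes often carried the interferon element, and 4 promoters are printed. Of the members above the signal limit, these are the 3 with the element that had the largest differences in size, and 1 without it. Both called genes are among them. RefSeq windows of 300 bases, from 250 before to 50 after each gene's start (GRCm38.p6), were found for 29 of the 34 members. The core of the interferon-stimulated response element was searched on both strands as GAAA, any 2 bases and GAAA again. It occurred in 15 of the 29 genes (51.7%), against 3.99% of 27025 genes with a window, or 15 of 35 windows (42.9%) against 3.44% of 32851. The gamma-activated site, searched as TTC, any 3 bases and GAA, which reads the same on both strands, occurred in 8 of 29 genes (27.6%) against 9.55%. A match is a description of the letters, not a site shown to be bound. Capitals mark matches to the response element core or its reverse complement, and each sequence is written 5′ to 3′ in the direction of the gene.
Bst2: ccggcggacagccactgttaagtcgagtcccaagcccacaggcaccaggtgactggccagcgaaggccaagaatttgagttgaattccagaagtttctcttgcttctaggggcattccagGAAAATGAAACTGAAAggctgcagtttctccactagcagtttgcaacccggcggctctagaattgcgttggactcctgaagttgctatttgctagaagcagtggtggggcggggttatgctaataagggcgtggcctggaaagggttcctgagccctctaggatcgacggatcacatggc
Gbp2: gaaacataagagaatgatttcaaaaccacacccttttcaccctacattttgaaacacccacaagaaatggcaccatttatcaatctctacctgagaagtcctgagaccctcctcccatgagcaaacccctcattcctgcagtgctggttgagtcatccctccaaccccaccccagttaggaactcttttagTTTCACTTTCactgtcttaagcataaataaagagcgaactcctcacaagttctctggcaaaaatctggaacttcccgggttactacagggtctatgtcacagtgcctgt
Ifit1: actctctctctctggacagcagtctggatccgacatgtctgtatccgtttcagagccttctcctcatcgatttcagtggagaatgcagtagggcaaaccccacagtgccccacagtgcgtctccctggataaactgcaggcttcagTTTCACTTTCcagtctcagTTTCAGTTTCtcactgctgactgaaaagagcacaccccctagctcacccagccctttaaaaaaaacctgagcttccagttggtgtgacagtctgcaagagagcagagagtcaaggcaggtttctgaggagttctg
Tap1: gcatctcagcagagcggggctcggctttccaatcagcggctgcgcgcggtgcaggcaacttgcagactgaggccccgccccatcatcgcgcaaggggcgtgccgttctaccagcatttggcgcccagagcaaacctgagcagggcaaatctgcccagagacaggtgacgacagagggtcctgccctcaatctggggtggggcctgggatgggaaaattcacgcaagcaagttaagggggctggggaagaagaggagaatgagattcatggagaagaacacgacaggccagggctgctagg
The windows are chr8:71537423-71537722 (minus strand), chr3:142620413-142620712 (plus strand), chr19:34640639-34640938 (plus strand) and chr17:34187306-34187605 (plus strand). In Bst2, 2 overlapping matches start 130 and 124 bases before the gene's start, and a gamma-activated site match that overlaps the first of them begins at 136. Gbp2 has 1 match, at 59 bases before the start, and Ifit1 has 2, at 104 and 85. Tap1, shown for contrast as the member above the signal limit without a match to the response element whose difference was largest in size, has 0 of either motif in this window. All 20 members above the signal limit had a window. The 10 with a match had a median log2 difference of 0.14 (7 above 0), and the 10 without had 0.06 (6 above 0), and this split was not tested.

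Among the RNA sensors, 0 of 5 were called, 3 of them above the signal limit and 2 below it. Of all genes above the limit 3.35% were called lower and 4.12% higher, and of those below it 18.7% and 25.7%. The sensors are too few to set against these shares. Ddx58, which encodes RIG-I, a helicase that recognises RNA ends, had signals of 686 with control siRNA, 720 with aof2 siRNA, 604 with rfk siRNA and 608 with tranylcypromine. On this probe set the rfk siRNA and tranylcypromine arrays were nearly equal and both below the other siRNA arrays. A second, dimmer probe set of Ddx58 gave 84.6, 97.8, 105 and 94.8, with rfk siRNA highest and control lowest. The log2 difference between the siRNA mean and tranylcypromine was 0.14 on the chosen probe set, 0.01 on the second and -0.46 on another below the signal limit, and -0.11 for their mean, so that Ddx58 has no settled direction. Eif2ak2, the gene of the double-stranded RNA-activated kinase PKR, gave 1189, 1175, 1037 and 1030 in the same order, with rfk siRNA and tranylcypromine again the lower arrays. Its log2 difference was 0.14, and its 3 probe sets gave 0.06 to 0.20. Tlr3, the endosomal receptor of double-stranded RNA, gave 79.5, 87.1, 106 and 112. Tranylcypromine was highest, 1.24-fold above the siRNA mean, with rfk siRNA close behind, and the chosen probe set can match several transcripts. Ifih1, which encodes the sensor of long double-stranded RNA MDA5, and Dhx58, which encodes the related regulator LGP2, were below the signal limit. The 3 probe sets of Dhx58 gave log2 differences from -0.28 to 0.89, which give no direction.

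By their chosen probe sets, in 0 of 5 transcription factors did the tranylcypromine array lie outside the range of the siRNA arrays. Over all genes above the signal limit, tranylcypromine lay below each siRNA array in 28.1% and above each in 27.7%. Irf3, the factor that sensors activate first, had signals of 940, 864, 888 and 909 for siGL3, aof2 siRNA, rfk siRNA and tranylcypromine in turn, a log2 difference of -0.02. Its other 3 probe sets, all dimmer, gave -0.17 to 0.43. On each of these tranylcypromine lay outside the range of the siRNA arrays, above it at 290 and below it at 83.3 and 79.1. Stat2, the STAT protein of the type I interferon complex, gave 109, 104, 96.0 and 97.9. A further probe set of Stat2, about as bright, gave 115, 122, 62.5 and 80.7, which is -0.88 with rfk siRNA and -0.51 with tranylcypromine against control on the log2 scale. On that probe set both arrays lay below control and aof2 siRNA, while on the chosen one all 4 lay close together. Irf9, the DNA-binding partner of Stat2, had 203, 273, 178 and 209. Irf9 was highest with aof2 siRNA, and the remaining arrays lay together. Irf1, a factor induced by interferon gamma and by inflammatory signals, was highest with control siRNA at 1487, against 990, 1134 and 1209. With aof2 siRNA it was just past 1.5-fold below control, at -0.59 on the log2 scale. Irf7, which amplifies interferon production, was below the signal limit on average, with signals of 38.5, 28.7, 20.9 and 37.6.

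Of the 10 antiviral effectors, 4 were above the signal limit and 0 of these were called. Beside 3.35% of all genes above the limit called lower and 4.12% called higher, 0 of 4 says little. Ifit1, whose product binds foreign RNA ends, had signals of 74.8 with control siRNA, 152 with aof2 siRNA, 112 with rfk siRNA and 82.3 with tranylcypromine. Control and tranylcypromine were low and near each other, and aof2 siRNA was 2.04-fold above control. Its neighbour in function Ifit2 had 309, 205, 239 and 191, with control siRNA highest and the aof2 siRNA and tranylcypromine arrays low. The 2 genes thus went different ways between control and aof2 siRNA, at 1.03 for Ifit1 and -0.59 for Ifit2 on the log2 scale. Rsad2, which encodes viperin, an enzyme that makes a chain-terminating nucleotide, had 84.4, 71.2, 82.4 and 68.3, and its 3 probe sets gave differences of 0.12 to 0.21. Isg20, an exonuclease gene, gave 413, 431, 214 and 458. The rfk siRNA array alone was low, at 51.8% of control, and the other arrays lay together.

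The remaining 6 effectors, Ifit3, Oas2, Oas3, Oasl2, Mx1 and Mx2, had mean signals below the limit, as did Usp18, the protease that removes the ubiquitin-like protein Isg15. Oas proteins make a second messenger that activates RNA decay, and Mx proteins are antiviral GTPases. Ifit3 had signals of 40.2, 58.9, 54.1 and 9.6 for siGL3, aof2 siRNA, rfk siRNA and tranylcypromine in turn, and Oasl2 had 22.2, 40.5, 33.5 and 12.5. In both genes tranylcypromine was the lowest array, and both met the 1.5-fold rule. Among genes below the limit 18.7% were called lower and 25.7% higher, more than above it. Of the 12 dim members 2 were called lower, these 2, and 1 higher, the immunoproteasome gene Psmb8 with 6.3, 4.4, 8.0 and 16.3. These shares are not above the background for dim genes. Usp18 ranged from 1.6 with rfk siRNA to 24.9 with aof2 siRNA, with 16.5 in control and 3.9 with tranylcypromine. With signals this low no size is given for the differences of these genes.

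**Figure D2:**
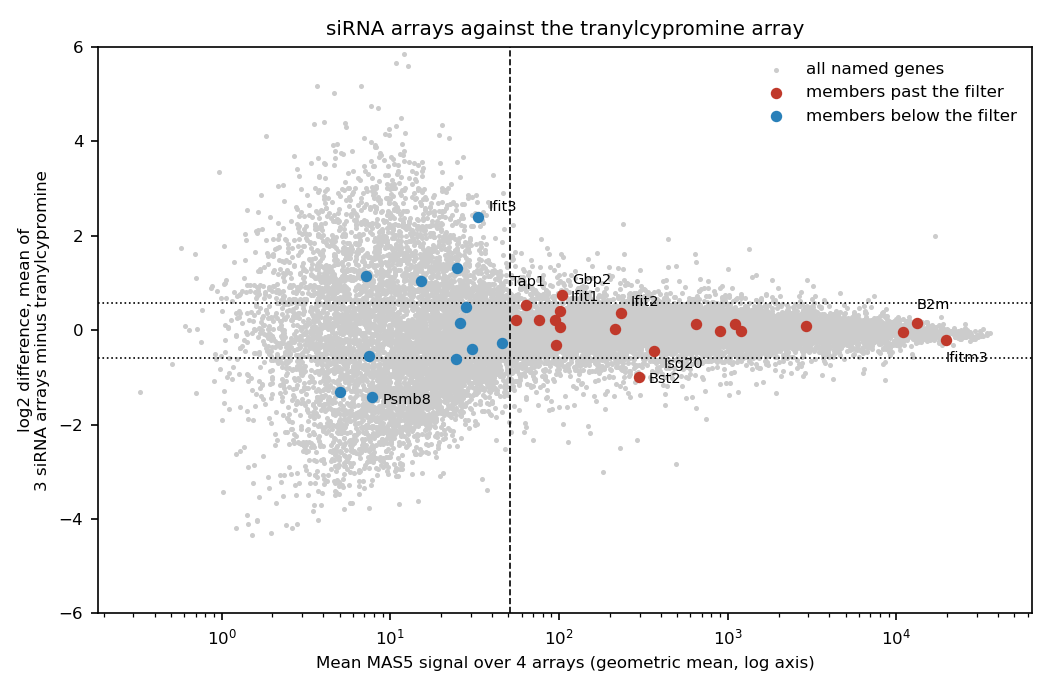
Difference on the log2 scale between the mean of the 3 siRNA arrays and tranylcypromine (above 0 means lower with tranylcypromine) against mean signal (log axis) for all named genes in grey and the 32 members in colour, with the signal limit dashed and 1.5-fold dotted. Scatter widens below the limit, and only Gbp2 and Bst2 of the members above it lie past 1.5-fold.

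Of the membrane proteins that restrict virus entry or release, Bst2 differed most between tranylcypromine and the siRNA mean, while Ifitm1 spread most over the 4 arrays. Bst2 encodes tetherin, which holds budding virus at the cell surface, and its signals were 198 with control siRNA, 341 with aof2 siRNA, 230 with rfk siRNA and 496 with tranylcypromine. The control and rfk siRNA arrays were low, aof2 siRNA was intermediate and tranylcypromine highest, 1.99-fold above the siRNA mean and 2.50-fold above control. Bst2 rests on 1 probe set, and at a 2-fold threshold it was not called. Bst2 is also a marker of plasmacytoid dendritic cells and is found on macrophages. Signals of the 10 macrophage and leukocyte markers summed to 604, 672, 428 and 762 for siGL3, aof2 siRNA, rfk siRNA and tranylcypromine in turn, and those of the 5 dendritic cell markers to 101, 122, 138 and 159. On every array Cd14 was the largest part of the first sum. Cd74, with 57.5, 67.5, 87.0 and 89.1, was the largest part of the second, so neither sum speaks for its whole list. In the macrophage and leukocyte list of 10, 7 were highest with tranylcypromine and 5 met the rule for higher, of which Cd14, with 264, 277, 160 and 367, was the one above the signal limit. Csf1r, the other of the 10 above the limit, was not called, and of all genes below it 30.1% lay above each siRNA array with tranylcypromine and 25.7% met the rule for higher. The defining leukocyte marker Ptprc ranged from 3.4 to 26.2, Itgam from 0.72 to 9.7 and Siglech from 3.7 to 31.5, all below the limit. Other markers went the other way. The dendritic cell marker Ccr9 had 13.8, 13.3, 8.1 and 1.5 and met the rule for lower, and the macrophage and leukocyte markers Lyz2 and Aif1 differed by 0.51 and 0.12 in the direction of lower with tranylcypromine. The cultures were of the fibroblast line 3T3-L1, and 8 of the 10 and 4 of the 5 markers lay below the signal limit. The part of these markers in the result was not tested, and bulk RNA does not show which cells a signal comes from.

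Ifitm1, Ifitm2 and Ifitm3 encode related small proteins that block fusion of viral and cellular membranes. Ifitm1 had signals of 61.4, 181, 85.7 and 84.5 for siGL3, aof2 siRNA, rfk siRNA and tranylcypromine in turn. The aof2 siRNA array was the highest, 2.95-fold above control. The rfk siRNA and tranylcypromine arrays lay together, 1.39-fold and 1.38-fold above control. Ifitm2 gave 10525, 12660, 9709 and 11159, and Ifitm3 gave 17530, 22369, 17542 and 21825. Both were highest with aof2 siRNA, at 1.20-fold and 1.28-fold of control, and Ifitm3 was almost as high with tranylcypromine. All 4 membrane genes were above control with aof2 siRNA and with tranylcypromine, and 3 of 4 with rfk siRNA. With rfk siRNA it was 2 of 4 with the arrays centred on their medians or quantile normalized, when Ifitm3 lay just below control. Of all 10788 genes above the limit, 5321 were above control with aof2 siRNA, 5232 with rfk siRNA and 5181 with tranylcypromine. With 4 genes the counts are too few to set against these.

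Gbp2 was the member called lower with tranylcypromine. It encodes a GTPase induced by interferon gamma that attacks the membranes of intracellular pathogens. Its signals were 121 with control siRNA, 98.5 with aof2 siRNA, 138 with rfk siRNA and 70.4 with tranylcypromine, so that the siRNA mean was 1.68-fold above tranylcypromine. Tranylcypromine lay below all 3 siRNA arrays, which themselves spread by 0.49 on the log2 scale. A further probe set of Gbp2 gave 106, 71.6, 95.4 and 61.7, a difference of 0.54, which misses 1.5-fold. With an offset of 32 before the log the difference of the chosen probe set was 0.56, and Gbp2 was not called. It was not called at 2-fold either. Ifi35, which encodes an interferon-induced leucine zipper protein, gave closely spaced signals of 2734, 3172, 3011 and 2788. Gbp3, a relative of Gbp2, was below the signal limit, with 23.4, 26.8, 30.1 and 24.0.

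Antigen presentation genes respond to interferon because they display viral peptides on MHC class I. B2m, the invariant chain of MHC class I, had signals of 12012, 14574, 14396 and 12291 for siGL3, aof2 siRNA, rfk siRNA and tranylcypromine in turn. Both specific siRNAs lay slightly above control and tranylcypromine, but its other probe set gave a difference of -0.13 against 0.15 for the chosen one. Tap1, a subunit of the peptide transporter, had 53.2, 70.4, 91.1 and 48.1, with rfk siRNA highest, 1.71-fold above control. Tranylcypromine was lowest but close to control, so the difference of 0.54 rests on the aof2 and rfk siRNA arrays. Against control siRNA alone it was 0.14. The other probe sets of Tap1, all below the signal limit, gave 0.72, -0.78 and 0.04 for rfk siRNA against control on the log2 scale. Psmb9, a subunit of the immunoproteasome, gave 67.9, 49.9, 56.2 and 49.7, with control siRNA highest.

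**Figure D3:**
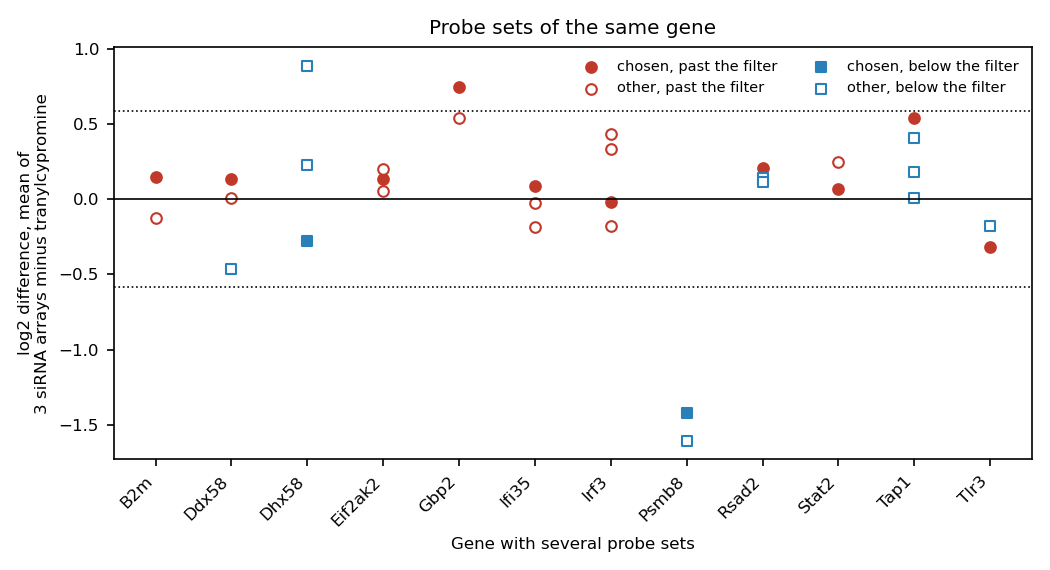
Difference on the log2 scale between the mean of the 3 siRNA arrays and tranylcypromine for each probe set of the 12 members that have several, with chosen probe sets filled and 1.5-fold dotted. Both Gbp2 probe sets lie above 0, while those of B2m, Ifi35 and Irf3 fall on both sides of it.

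Of the 7 members with several probe sets above the signal limit, these gave the same sign in 4, against 53.3% of the 5228 such genes. The median distance between probe sets of such genes was 0.29, and 13 of the 20 members had a difference smaller than 0.3 in size.

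Set against the control siRNA array, most of the 20 members stayed within 1.5-fold in each treated array. The 3 comparisons share the control array, so their values stand side by side and are not independent. With aof2 siRNA 3 of 20 members were at least 1.5-fold above control, Ifitm1, Ifit1 and Bst2 (1.56, 1.03 and 0.78 on the log2 scale), against 6.26% of all genes. Irf1 and Ifit2 were at least 1.5-fold below it, both at -0.59, against 2.88%. Both shares of the 20 with aof2 siRNA were larger than those of all genes, which was not tested. With rfk siRNA 1 was above, Tap1 at 0.78, against 3.92%, and 1 below, Isg20 at -0.95, against 3.8%. With tranylcypromine 1 was above, Bst2 at 1.32, against 7.48%, and 2 below, Gbp2 at -0.78 and Ifit2 at -0.69, against 4.77%. With an offset of 32 before the log, Irf1 and Ifit2 with aof2 siRNA, Tap1 with rfk siRNA and Gbp2 with tranylcypromine no longer passed 1.5-fold, and Irf1 did not pass it with quantile normalization either. When a gene's probe sets were averaged, Tap1 fell below the signal limit and was not compared, and Tlr3 passed 1.5-fold above control with rfk siRNA and with tranylcypromine. Member medians were 0.10 (aof2), -0.06 (rfk) and -0.01 (tranylcypromine), beside -0.0041, -0.01 and -0.02 over all genes. The aof2 siRNA array held the highest of the 4 signals in 8 of 20 members, against 22% of all genes, and the lowest in 2, against 22.1%. The control siRNA array held the highest in 7 (25.2%) and the lowest in 7 (22.9%), and the rfk siRNA array in 2 (25.1%) and 5 (27%).

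**Figure D4:**
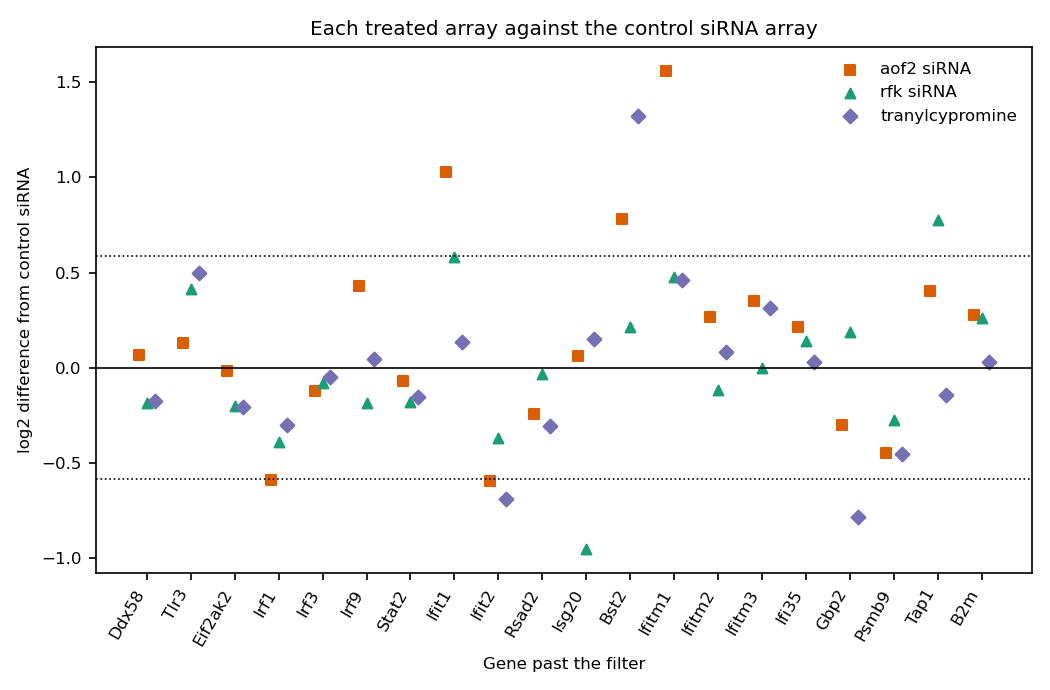
Difference on the log2 scale from the control siRNA array for the 20 members above the signal limit, with a symbol per treated array and 1.5-fold dotted. Ifitm1 and Ifit1 stand highest with aof2 siRNA, Bst2 with tranylcypromine, and Isg20 lowest with rfk siRNA.

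The rest of the pathway was looked at through 6 lists holding 117 genes, of which 101 were measured and 76 were above the signal limit. Of the 76, 3 (3.95%) were called lower with tranylcypromine and 2 (2.63%) higher, beside 3.35% and 4.12% of all genes above the limit. Their median log2 difference was 0.008, beside 0.0011 over all genes. At these shares 0 calls in any 1 of the 6 lists says little about that list. Of 5 interferon receptor genes above the limit 0 were called, although in 5 of 5 the siRNA mean was the higher value, against 50.2% of all genes, with a median of 0.26. Against control siRNA alone their median with tranylcypromine was -0.08, and tranylcypromine was above control in 2 of the 5, Ifngr1 with 806 against 728 and Il10rb with 971 against 968. Ifnar1, a chain of the type I interferon receptor, had signals of 700 with control siRNA, 640 with aof2 siRNA, 741 with rfk siRNA and 517 with tranylcypromine, a difference of 0.42. Ifngr2, a chain of the interferon gamma receptor, differed by 0.29, Ifngr1 by 0.11 and Il10rb by 0.05. The interferon genes Ifnb1, Ifna1, Ifna2, Ifna4 and Ifng were all below the limit.

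Of 9 adaptors and kinases of RNA sensing above the limit 0 were called. Among all genes above it 3.35% were called lower and 4.12% higher, so 0 of 9 says little. Tank, an adaptor of the kinase that activates Irf3, came closest with 2226, 2183, 1956 and 1431 for siGL3, aof2 siRNA, rfk siRNA and tranylcypromine in turn, a difference of 0.57, and Traf6, a ubiquitin ligase of the pathway, differed by 0.43. In the other direction stood Mavs, the mitochondrial adaptor of RIG-I, at -0.37 and Pqbp1 at -0.13. Of 10 genes of JAK-STAT signalling 0 were called, which says as little. The feedback inhibitor Socs1 was at -0.33 and the kinase Tyk2 at -0.28, while Irf2 was at 0.12 and Pias1 at 0.0028.

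Of 29 further interferon-stimulated genes above the limit 2 were called lower with tranylcypromine and 2 higher, 6.9% each beside 3.35% and 4.12% of all genes. The chemokine gene Ccl5 had signals of 149, 191, 193 and 101 for siGL3, aof2 siRNA, rfk siRNA and tranylcypromine in turn, and Trim30a, a regulator of inflammatory signalling, had 305, 386, 395 and 224. In both, tranylcypromine was the lowest array, with differences of 0.81 and 0.68. The immunity-related GTPase gene Igtp had 45.2, 62.5, 41.0 and 101, and Parp9, whose product modifies proteins with ADP-ribose, had 265, 324, 256 and 455. In both, tranylcypromine was the highest array, which the rule for higher requires, with differences of -1.06 and -0.70. The aof2 siRNA array came next in both, as for Bst2, and how often it does so among all genes called higher was not counted. The 10 further genes of antigen presentation had 0 calls, with Tap2 at 0.36, Tapbp at 0.30, Psmb10 at -0.48 and H2-K1 at -0.35. Of 13 genes that handle small or double-stranded RNA, 1 was called lower with tranylcypromine, the Argonaute gene Ago3 at 0.68. Among all genes above the limit 3.35% were called lower, and 1 of 13 is too few to set against that share. Drosha, the nuclease that starts microRNA processing, was at 0.52, Tarbp2 at -0.28 and Stau1 at -0.26.

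**Figure D5:**
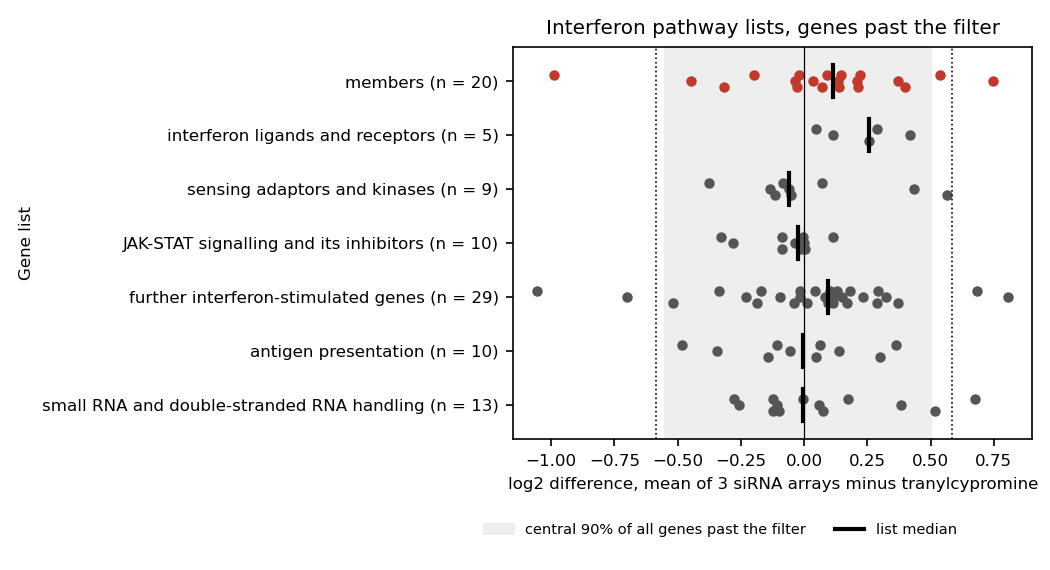
Difference on the log2 scale between the mean of the 3 siRNA arrays and tranylcypromine for members and for the 6 pathway lists, above the signal limit only, with a bar at each median, the central 90% of all single genes (-0.55 to 0.50) shaded and 1.5-fold dotted. Medians run from -0.06 for adaptors and kinases of RNA sensing to 0.26 for interferon ligands and receptors.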

How the data were processed

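Total RNA (250 ng per culture) was labelled with biotin and each culture was hybridised to 1 array. The deposited values are linear intensities per probe set (MAS5 signals) made by the authors, per the submitters' processing notes. The sources used here give neither the MAS5 version nor the scaling target or detection calls. Equal trimmed means show that arrays were scaled singly, which hides differences in total RNA per cell. MAS5 sets no floor, so dim signals scatter.

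Signals were taken to log2. Of 45101 probe sets, 34958 had 1 gene symbol in the platform annotation, 932 had several and 9211 were unnamed here. Gene identifiers of 34754 were found in RefSeq (GRCm38.p6), which changed 0 symbols. All 34 members are named. From each pathway list the 2 highest and 2 lowest differences above the signal limit are named, and other genes were chosen after their values were seen. Members and lists were chosen with earlier results of these data known. The calling step was tested on simulated data. The 12 alternatives are scaling, offset, signal limit, probe set choice, fold and reference. Python 3.11.15, NumPy 2.4.6, pandas 2.3.3 and matplotlib 3.10.9 were used.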

Additional observations from a re-analysis of the deposited data

How the results depend on the processing

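The median difference of the members, 0.11, ranged from 0.0094 to 0.15 over the 12 alternatives, and that of the pathway lists from -0.03 to 0.05. Member medians against control ranged from 0.02 to 0.15 with aof2 siRNA, -0.12 to -0.01 with rfk siRNA and -0.07 to 0.10 with tranylcypromine. The medians of the pathway lists and, against control, of the members with tranylcypromine thus turned sign under some alternatives. Bst2 ranged from -1.32 to -0.83 and Gbp2 from 0.56 to 0.88, so neither turned direction. Dim signals set the limit of what can be seen here. The causes of the shifts below were not tested, except that a stricter limit or fold leaves fewer genes by construction.

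With no limit on signal, 3 members were lower and 2 higher with tranylcypromine, as were 1744 and 2345 of all genes and 13 and 4 pathway genes. Of the 32 members, those above control then numbered 6 with aof2 siRNA, 4 with rfk siRNA and 4 with tranylcypromine, and those below 5 with rfk siRNA and 6 with tranylcypromine. Of all 18194 genes, 3244, 2892 and 3569 were above control in the same order, and 2646 and 2541 were below with rfk siRNA and tranylcypromine. With the limit at the 75th percentile, 8 members remained to be compared, 0 were lower and 0 higher with tranylcypromine, against 95 and 126 of all genes and 0 and 0 pathway genes, and against control 0 members were above and, except for 1 below with aof2 siRNA, 0 below. At 2-fold, 0 members were lower and 0 higher, with 79 and 102 of all genes and 0 and 1 pathway genes, while 0 were below control with any treatment and 0 above with rfk siRNA. With the offset, 0 members and 238 genes were lower with tranylcypromine, and against control 0 members were below with aof2 siRNA, 0 above with rfk siRNA and 1 below with tranylcypromine. Quantile normalization left 1 member below control with aof2 siRNA. With the mean of all probe sets 2 members, Bst2 and Tlr3, were above control with tranylcypromine.

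Against control siRNA alone, 2 members (Gbp2 and Ifit2) were lower and 1 (Bst2) higher. Of all genes 515 (4.77%) were lower and 807 (7.48%) higher, and of the pathway genes 1 was lower and 5 were higher. Without the control siRNA array in the mean, 3 members (Gbp2, Ifit1 and Tap1) were lower and 2 (Bst2 and Isg20) higher, against 3.76% and 3.88% of all genes. Without the aof2 siRNA array, 2 members (Bst2 and Isg20) and 698 genes were higher. No paired analysis was possible because each group has 1 array.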

Other observations

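Of 36 further interferon-stimulated genes with a RefSeq window, 15 (41.7%) held its core and 6 (16.7%) held the gamma-activated site, against 51.7% and 27.6% of the members and 3.99% and 9.55% of all genes, and the difference from the members was not tested. Among the 7 members below the signal limit that had a window, 4 held the core, namely Gbp3, Ifih1, Ifit3 and Oas3. In Isg15, which has no value here, 3 overlapping matches began 78, 72 and 66 bases before the gene's start. Both motifs occurred together in 3 members, Bst2, Eif2ak2 and Ifitm3.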
